A study of Mus musculus with 6 samples.

Results

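The autophagy core and adaptor genes described here are 10 genes of a table of 49548 mouse genes. They are the cargo receptor gene Sqstm1, the LC3 genes Map1lc3a and Map1lc3b, the GABARAP genes Gabarap, Gabarapl1 and Gabarapl2, the initiation genes Becn1, Ulk1 and Wipi1, and the transcription factor gene Tfeb. They were taken by gene name for their place in the pathway, and each name matched 1 gene. All 10 passed the filter on low values, which kept the 12614 genes whose normalised read count reached 10 or more in 3 or more libraries.

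The libraries were made from synovial fibroblasts (SFs), the connective tissue cells of the joint membrane, grown from the ankle joints of 8-week-old hTNFtg mice (CBA C57BL/6J in the methods). These mice carry a human TNF transgene and develop polyarthritis, and cells of both groups carried it. The untreated group had 3 libraries, and the amisulpride group had 3 libraries from cells given 500 μM amisulpride, an antipsychotic that blocks dopamine receptors, for 48 hours. The controls are labelled as given no treatment and described in the methods as given vehicle. CD45+ cells had been depleted from the cultures at passage 1. The replicates are described as biological, but the labels do not tie the libraries to animals. The comparison asks how the drug changes the expression profile of arthritic SFs, read here for autophagy by 3′ mRNA sequencing (QuantSeq), which samples the end of each polyadenylated transcript.

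Autophagy encloses cell material in a double membrane, the autophagosome, and delivers it to the lysosome for breakdown. The ULK1 kinase complex starts the process, the Beclin 1 lipid kinase complex marks the growing membrane with the lipid PI3P, WIPI proteins read that mark, and proteins of the LC3 and GABARAP family are then coupled to the membrane lipid phosphatidylethanolamine. Receptors such as p62, the product of Sqstm1, hold ubiquitin-tagged cargo and bind LC3, and are themselves broken down with it. Transcript levels do not measure this flow: p62 and lipid-bound LC3 are turned over as proteins, and only RNA was measured here. In the synovial fibroblasts of arthritic joints autophagy is known as a response to stress that bears on the survival of the cells.

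Approximate depths ran from 2.52 to 4.71 M reads, with the depth of untreated replicate 1, near 3.99 M reads, uncertain. Amisulpride replicate 3 was the shallowest library and stood apart on the first principal component, which held 37.1% of the variance, at 73.9 against -38.2 to 10.4 for the other 5. The 8 fibroblast markers were all measured, with summed normalised counts of 38540 to 55607 in untreated and 46992 to 89303 in amisulpride libraries. These sums were mostly Col1a1, Col1a2, Vim and Col3a1. Those genes and Thy1 had higher fitted means with amisulpride, while Prg4, Pdgfra and Pdgfrb had lower ones. Prg4 had 915, 859 and 733 untreated and 426, 304 and 653 with amisulpride. Of the 8 fibroblast markers, Prg4 alone had an unadjusted p under 0.05 in the limma test used below. Its log2 fold change of -0.92 did not pass adjustment (adjusted p = 0.251 in limma). The 7 macrophage markers, mostly Lyz2, summed to 2069 to 3595 and 1818 to 3703. Their fitted means did not move one way, with Cd14, Ptprc, Csf1r and Lyz2 lower and Adgre1, Cd68 and Mrc1 higher in amisulpride libraries. Of these macrophage markers, only Cd14 and Csf1r, both lower, had an unadjusted p under 0.05 in the same test. Among all genes tested, 5.77% were lower at that p. Neither gene passed adjustment (adjusted p = 0.144 and 0.456 in limma). Csf1r had 114, 93 and 76 untreated and 41, 23 and 100 with amisulpride. Cd14 had 121, 69 and 76 untreated and 47, 25 and 13 with amisulpride, Ptprc, which encodes CD45, had 38, 12 and 18 against 23, 5 and 5, and Adgre1 had 39, 25 and 14 against 59, 43 and 32. The 4 lymphocyte markers were listed at 0 in every library, the 4 endothelial markers summed to 13 or less, the 4 neutrophil markers to 10 or less and the 4 muscle and pericyte markers to 59 or less. The 3 chondrocyte markers, nearly all Comp, summed to 315 to 1012 and 582 to 1055. The part of other cells in the results that follow was not tested.

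None of the 10 autophagy genes changed past the adjusted threshold after amisulpride. The highest fold changes were those of Gabarapl1, Sqstm1 and Gabarapl2, each about 1.4-fold higher in the treated group, while Tfeb and Ulk1 had lower means, Becn1, Map1lc3a and Map1lc3b had log2 fold changes near 0, and Wipi1 and Gabarap lay slightly to moderately higher. With limma on log2(normalised count + 1) and Benjamini-Hochberg adjustment over all genes tested, 0 of 10 had an adjusted p under 0.05, beside 0.285% of all genes tested. The study thresholds were a change of 2-fold or more either way together with an unadjusted p under 0.05. Here and below they were applied to the limma values, not to the study's DESeq results. By them 0 of 10 passed, beside 5.7% of all genes. At an unadjusted p under 0.05 there were 0 higher and 0 lower members, beside 5.11% and 5.77% of all genes. Fold changes are amisulpride over untreated and, because of the added 1, are understated for low genes. Since these are bulk cultures, fewer cells of a type and less RNA per cell cannot be told apart.

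Of the 10 genes, 7 had a higher and 3 a lower fitted mean, with a median log2 fold change of 0.09 against 0.00 over all genes tested. The 3 amisulpride values lay wholly above the 3 untreated ones in 2 genes, Gabarapl1 and Gabarapl2, against 7.8% of all genes tested. In no member did they lie wholly below, against 8.66% of all genes.

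**Figure D1:**
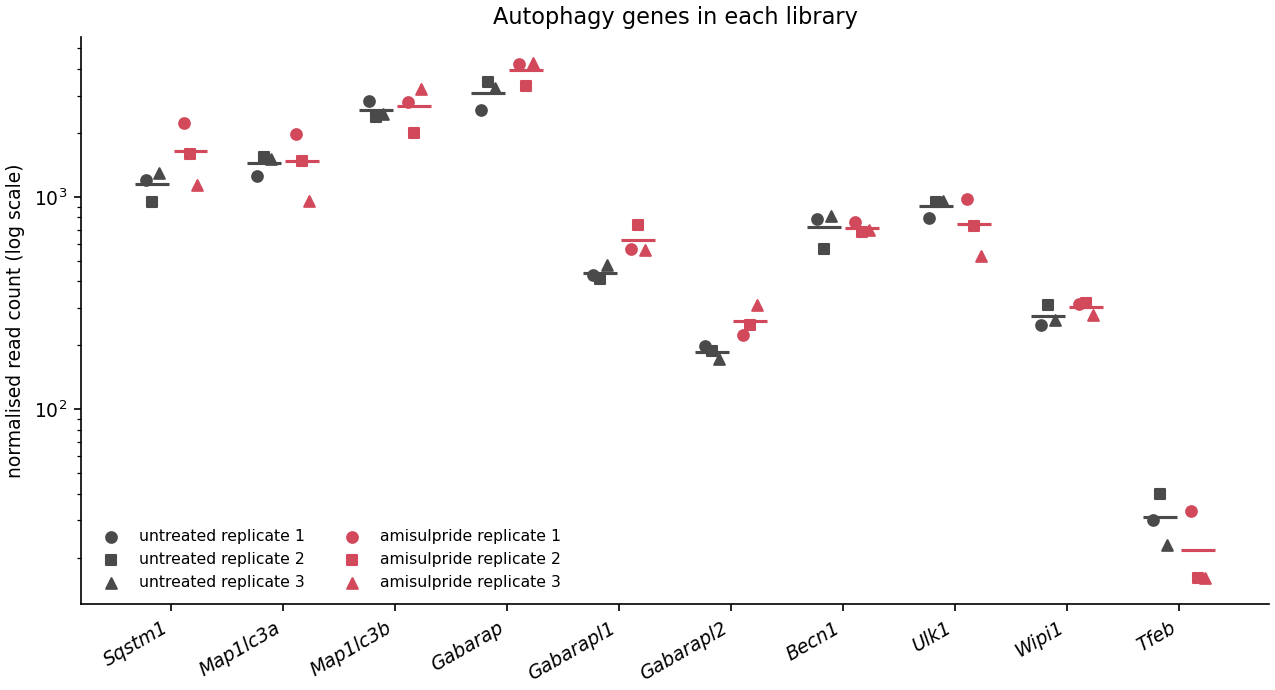
Normalised read count of each autophagy gene on a log axis in the 3 untreated (grey) and 3 amisulpride (red) libraries; symbols give the replicate number and bars the group mean. The groups are apart only for Gabarapl1 (411 to 476 against 564 to 736) and Gabarapl2 (173 to 198 against 224 to 311).

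By mean normalised count over the 6 libraries the order of the genes was Gabarap (3517), Map1lc3b (2615), Map1lc3a (1452), Sqstm1 (1399), Ulk1 (823), Becn1 (717), Gabarapl1 (530.5), Wipi1 (288), Gabarapl2 (224) and Tfeb (26.3). The 3′ kit yields reads from transcript ends, so these normalised counts were not divided by length. Neighbours in this order overlapped in their ranges over libraries except at 3 steps, from Map1lc3b to Map1lc3a, from Gabarapl1 to Wipi1 and from Gabarapl2 to Tfeb. The order says nothing of how well each transcript end is captured or mapped.

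Among the initiation genes, Ulk1 encodes the kinase that starts autophagosome formation and that MTORC1 holds in check when nutrients are present. Ulk1 (ENSMUSG00000029512, chr5:110784488-110810097 on the minus strand of mm10) had normalised counts of 796, 950 and 956 in untreated and 978, 732 and 526 in amisulpride libraries. The amisulpride values ran from above to below the whole untreated range, with the lowest in replicate 3. The means were 901 ± 90.7 and 745 ± 226 (SD, n = 3 each), and the log2 fold change was -0.31 ± 0.27 (SE), with a 95% interval of -0.91 to 0.28 and an adjusted p of 0.725 in limma. Its paralog Ulk2 had 276, 312 and 274 against 238, 337 and 220. None of the other ULK complex subunits passed the threshold: Rb1cc1, which encodes the scaffold FIP200, had the lowest p of this list and values of 153, 166 and 222 against 207, 187 and 292 (log2 fold change 0.33, adjusted p = 0.708). Of the 5 genes of the complex, Ulk1 included, 2 were higher and 3 lower, with a median of -0.14.

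Becn1 encodes Beclin 1, a scaffold of the class III PI3 kinase that makes PI3P. Becn1 (ENSMUSG00000035086, chr11:101285952-101302286, minus strand) had 787, 565 and 810 in untreated and 760, 680 and 700 in amisulpride libraries. All 3 amisulpride values lay inside the untreated range. The means were 721 ± 135 and 713 ± 41.6 (SD, n = 3 each), the log2 fold change was 0.00 ± 0.24 with a 95% interval of -0.53 to 0.53, and the adjusted p was 0.998. Cntd1 on the opposite strand overlaps Becn1 over 10366 bases but had at most 3 normalised counts in any library.

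Its kinase partners gave other values. Pik3c3, the catalytic subunit VPS34, had 25, 26 and 11 against 38, 27 and 41, with a log2 fold change of 0.81 ± 0.42 (adjusted p = 0.523). Its groups did not overlap, but the closest values, 26 and 27, differ by less than 1 read in amisulpride replicate 2 (1.34 normalised counts). Pik3r4, the regulatory subunit VPS15, had 70, 68 and 50 against 91, 87 and 91, also without overlap (0.53 ± 0.27, adjusted p = 0.523). Among all genes tested, 7.8% had amisulpride values wholly above the untreated ones. Of the 8 genes of the complex 7 were higher and 1 lower, with a median log2 fold change of 0.15, and none had an unadjusted p under 0.05.

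Wipi1 encodes a protein that binds PI3P on the growing membrane. Wipi1 (ENSMUSG00000041895, chr11:109573331-109611967, minus strand) had 248, 311 and 263 in untreated and 313, 316 and 279 in amisulpride libraries. Each amisulpride value lay above the untreated value of the same replicate number, by 0.02 to 0.33 on the log2 scale, while the groups overlapped. The log2 fold change was 0.15 ± 0.23, with a 95% interval of -0.36 to 0.66 (adjusted p = 0.851).

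The paralog Wipi2, which recruits the conjugation machinery, had 351, 260 and 283 against 237, 240 and 215. Its groups did not overlap and the amisulpride values were the lower ones, at a log2 fold change of -0.36 ± 0.24 (adjusted p = 0.631). Among the 10 genes of PI3P effectors and membrane supply, 6 were higher and 4 lower, with a median of 0.12. Only Atg9a, which encodes the membrane protein of the vesicles that seed the autophagosome, had an unadjusted p under 0.05. Among all genes tested, 5.11% were higher and 5.77% lower at that p. Atg9a was lower with amisulpride. It had 61, 78 and 77 against 60, 33 and 27, and its log2 fold change of -0.91 ± 0.35 did not pass adjustment (adjusted p = 0.357).

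The LC3 and GABARAP proteins are small ubiquitin-like proteins made as precursors. An ATG4 protease cuts each precursor behind a glycine near its end, and that glycine is then joined to the membrane lipid. The last bases of 4 of the 5 coding sequences are shown because they carry this shared site. They were read 5′ to 3′ from the GENCODE M21 annotation of GRCm38 (mm10), each within a single exon and on the plus strand, and end with the stop codon. Capitals mark the last glycine codon.
Map1lc3a: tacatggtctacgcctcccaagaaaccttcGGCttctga
Gabarap: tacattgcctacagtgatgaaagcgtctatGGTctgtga
Gabarapl1: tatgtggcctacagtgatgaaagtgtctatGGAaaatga
Gabarapl2: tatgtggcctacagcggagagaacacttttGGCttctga

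These stretches lie at chr2:155277599-155277637 for Map1lc3a, chr11:69994486-69994524 for Gabarap, chr6:129541129-129541167 for Gabarapl1 and chr8:111952367-111952405 for Gabarapl2. In each of these 4 genes 1 codon stands between the glycine codon and the stop. The coding sequences have 121 and 125 codons in the LC3 genes and 117 in each GABARAP gene. Aligned coding positions were 74.7% identical between Map1lc3a and Map1lc3b and 74.9% between Gabarap and Gabarapl1. Gabarapl2 was 63.1% identical to Gabarap and 64.5% to Gabarapl1. Pairs across the 2 subfamilies were 50.7% to 55.2% identical. In the last 300 transcript bases, where the reads fall, 9 of the 10 autophagy genes shared less than 5% of their 30-base words with any other gene. Map1lc3b was the exception, with 12 genes above that share and at most 6.51% of its words in common with one, Tmem214.

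Map1lc3a encodes LC3A. Map1lc3a (ENSMUSG00000027602, chr2:155276297-155278073, plus strand) had 1250, 1547 and 1511 normalised counts in untreated and 1968, 1480 and 957 in amisulpride libraries. The amisulpride libraries held both its highest and its lowest value. The means were 1436 ± 162 and 1468 ± 506 (SD, n = 3 each), and the log2 fold change was -0.02 ± 0.29 with a 95% interval of -0.66 to 0.62 (adjusted p = 0.983). The sign of this value depended on the weights per library and on single libraries, at 0.09 with weights and 0.26 without amisulpride replicate 3.

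Map1lc3b encodes LC3B, the form most used as an autophagosome marker. Map1lc3b (ENSMUSG00000031812, chr8:121590361-121598760, plus strand) had 2839, 2384 and 2466 against 2795, 2000 and 3203. Again the highest and the lowest value were both in amisulpride libraries. The log2 fold change was 0.03 ± 0.26, with a 95% interval of -0.54 to 0.61 (adjusted p = 0.975), and turned to -0.07 with quantile normalisation and -0.03 with weights. The annotation places all 8400 bases of Map1lc3b inside Gm20388 (chr8:119910841-124345722) on the same strand, so reads may not have been told apart. Gm20388 was not among the genes that shared 5% or more of the 30-base words of the Map1lc3b transcript ends. Whether reads were counted over exons or whole gene spans is not stated. Gm20388 had 1694, 1523 and 1216 against 1398, 1420 and 5707, the last in amisulpride replicate 3, where Map1lc3b too was highest.

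The GABARAP genes were all higher on average. Gabarap (ENSMUSG00000018567, chr11:69991143-69994951, plus strand), the most abundant of the 10, had 2564, 3458 and 3251 against 4216, 3322 and 4291. Amisulpride replicates 1 and 3 lay above all untreated libraries, and replicate 2 lay among them. The means were 3091 ± 468 and 3943 ± 539 (SD, n = 3 each). The fold change fitted on the log2 scale was 1.28, with a 95% interval of 0.863 to 1.89. The log2 fold change of 0.35 ± 0.26 had an adjusted p of 0.665.

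Gabarapl1 encodes the family member also named GEC1. Gabarapl1 (ENSMUSG00000030161, chr6:129533160-129542346, plus strand) had 427, 411 and 476 against 569, 736 and 564. Every amisulpride library lay above every untreated one, and replicate 2 was the highest. The means were 438 ± 33.9 and 623 ± 97.9 (SD, n = 3 each), and the fold change fitted on the log2 scale was 1.41, with a 95% interval of 0.991 to 2.02. The log2 fold change of 0.50 ± 0.23 had the lowest p of the 10 genes, at an adjusted p of 0.473 in limma. Leaving out each library in turn gave 0.37 to 0.56, and the unadjusted p came under 0.05 without amisulpride replicate 3. Gm44243 on the same strand and 1700101I11Rik on the opposite one overlap Gabarapl1 over 692 and 658 bases, with at most 17 and 3 normalised counts in a library.

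Gabarapl2 encodes GATE-16. Gabarapl2 (ENSMUSG00000031950, chr8:111940703-111953612, plus strand) had 198, 187 and 173 against 224, 248 and 311. All amisulpride libraries again lay above all untreated ones, with the smallest distance between untreated replicate 1 and amisulpride replicate 1. The means were 186 ± 12.5 and 261 ± 44.9 (SD, n = 3 each), and the fold change of 1.39 fitted on the log2 scale had a 95% interval of 0.960 to 2.01. The log2 fold change of 0.48 ± 0.24 had an adjusted p of 0.516, and leaving out each library gave 0.34 to 0.58.

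The 5 family genes were also set side by side within each library, a description chosen after their values were seen and given no test. The mean log2 level of the 3 GABARAP genes minus that of the 2 LC3 genes was -1.65, -1.58 and -1.58 in untreated and -1.53, -1.02 and -0.94 in amisulpride libraries. The treated values all lay above the untreated ones, amisulpride replicate 1 narrowly, and had a wider spread, at -1.16 ± 0.32 against -1.60 ± 0.04 (SD, n = 3 each). Summed normalised counts were 3189, 4056 and 3900 against 5009, 4306 and 5166 for the GABARAP genes, and 4089, 3931 and 3977 against 4763, 3480 and 4160 for the LC3 genes. The GABARAP sums did not overlap between the groups and the LC3 sums did. Gabarap and Map1lc3b made up most of the family's normalised counts in every library, at 35.2% to 46.0% and 25.7% to 39.0%, while Gabarapl1 held 5.15% to 9.45% and Gabarapl2 2.20% to 3.33%. Map1lc3a held 17.2%, 19.4% and 19.2% in untreated and 20.1%, 19.0% and 10.3% in amisulpride libraries. Its lowest share was thus in amisulpride replicate 3, where the GABARAP minus LC3 value was highest.

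**Figure D2:**
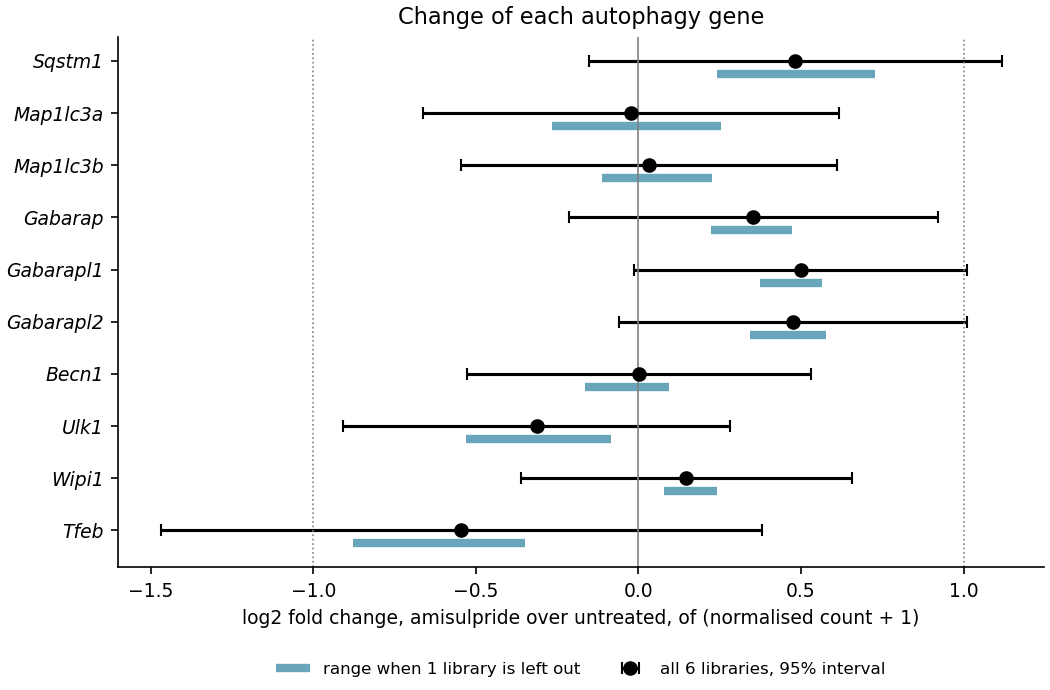
Log2 fold change of each autophagy gene, amisulpride over untreated, on log2(normalised count + 1), with the limma 95% interval over all 6 libraries (black) and the range of the value when each library was left out (blue); dotted lines mark a fold change of 2 in either direction. Every interval includes 0, and the blue ranges cross 0 for Map1lc3a, Map1lc3b and Becn1.

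The enzymes that process and couple the family are a separate list of 11 genes, of which 8 were higher and 3 lower, with a median log2 fold change of 0.26. Atg16l2, a relative of the ATG16L1 subunit that places the conjugation complex on membranes, had 86, 158 and 137 against 232, 246 and 215. Its log2 fold change of 0.90 ± 0.28 had an adjusted p of 0.241, the lowest of this list. Atg16l1 itself had 178, 140 and 125 against 179, 141 and 84. Among the ATG4 proteases, Atg4a had 100, 131 and 110 against 98, 86 and 36, without overlap (-0.74 ± 0.37, adjusted p = 0.509). Atg4b, which encodes the protease with the broadest use of LC3 precursors, had 242, 228 and 202 against 270, 228 and 208.

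Sqstm1 encodes p62, which binds ubiquitin and LC3, is degraded with its cargo and holds KEAP1, the inhibitor of the transcription factor NRF2. Sqstm1 (ENSMUSG00000015837, chr11:50199366-50210827, minus strand) had 1197, 947 and 1297 normalised counts in untreated and 2225, 1595 and 1131 in amisulpride libraries. Amisulpride replicates 1 and 2 lay above all untreated libraries, and replicate 3 lay below untreated replicates 1 and 3. The means were 1147 ± 180.3 and 1650.3 ± 549 (SD, n = 3 each). The fold change fitted on the log2 scale was 1.40, with a 95% interval of 0.900 to 2.17. The log2 fold change was thus 0.48 ± 0.29, with an adjusted p of 0.586. Without amisulpride replicate 3 the log2 fold change was 0.73, with an unadjusted p under 0.05 and an adjusted p of 0.248 in limma, and without amisulpride replicate 1 it was 0.24. The part of that library's depth or of its distance from the other libraries in this difference was not tested.

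Other cargo receptors were measured beside it. Of 15 genes, Sqstm1 included, 10 were higher and 5 lower, with a median of 0.16. At an unadjusted p under 0.05 there were 2, both higher, beside 5.11% higher and 5.77% lower among all genes tested. Tex264, an autophagy receptor of the endoplasmic reticulum, had 123, 184 and 180 against 225, 261 and 331 (0.75 ± 0.27, adjusted p = 0.315). Stbd1, a receptor for glycogen, had 36, 43 and 51 against 83, 60 and 75 (adjusted p = 0.393). Nbr1, which resembles p62 in its domains, had 94, 71 and 75 against 73, 114 and 81. Optn was low, at 4 to 36 normalised counts.

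The genes whose pattern over the 6 libraries was most like that of Sqstm1, among 11034 protein-coding genes, included Stx17 (Pearson r = 0.975), Soga1 (0.975), Mbnl1 (0.972) and Faap100 (0.968). These are descriptions over 6 libraries of 1 experiment, which share their scaling and differ in depth. Stx17, which encodes the syntaxin that autophagosomes use to fuse with lysosomes, had 88, 69 and 99 against 144, 103 and 89. As with Sqstm1, its highest value was in amisulpride replicate 1 and its value in amisulpride replicate 3 lay among the untreated ones.

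**Figure D3:**
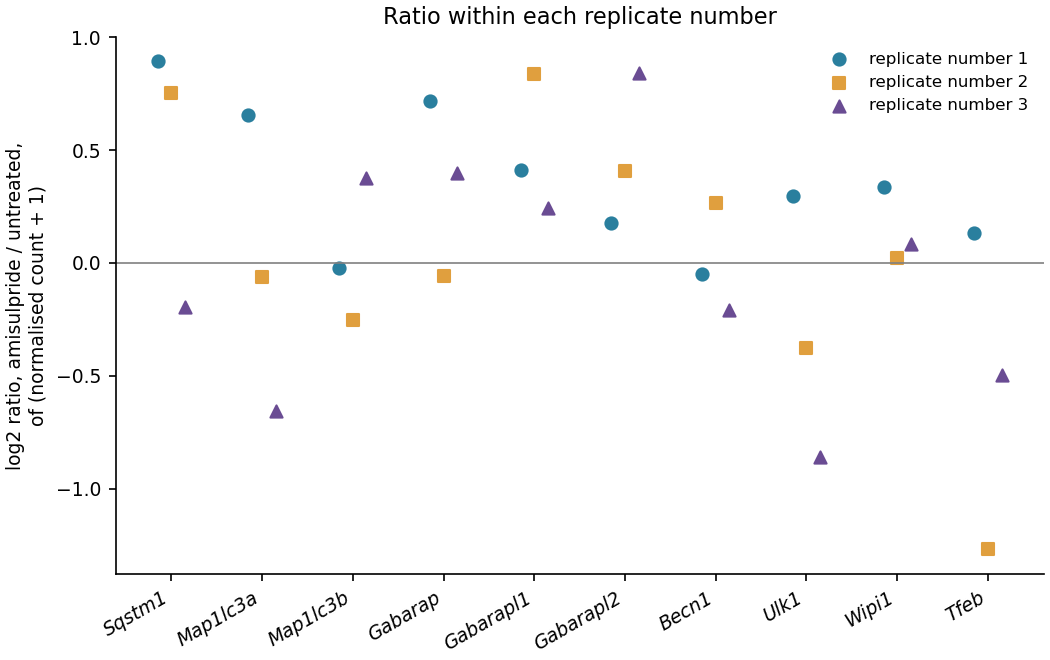
Log2 ratio of amisulpride to untreated within each replicate number, of (normalised count + 1), for the 10 autophagy genes. Gabarapl1, Gabarapl2 and Wipi1 are above 0 in all 3 numbers, whereas replicate number 3 is the lowest for Sqstm1 (-0.20), Map1lc3a (-0.66), Ulk1 (-0.86), Becn1 (-0.21) and Gabarapl1 (0.24) and the highest for Map1lc3b (0.38) and Gabarapl2 (0.84).

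Within replicate numbers the 3 ratios of Sqstm1 were 0.89, 0.75 and -0.20 on the log2 scale, so 2 numbers of 3 were higher with amisulpride. Those of Gabarapl1 were 0.41, 0.84 and 0.24 and those of Gabarapl2 were 0.18, 0.41 and 0.84. The number with the highest ratio thus differed among the 3 genes. Map1lc3a went from 0.65 in number 1 to -0.66 in number 3, a wider spread than the fitted group difference of any of the 10 genes. With the replicate number as a block no member passed the adjusted threshold either, and none had an unadjusted p under 0.05.

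Tfeb encodes the transcription factor that switches on lysosomal and autophagy genes when MTORC1 is off. Tfeb (ENSMUSG00000023990, chr17:47737030-47792419, plus strand) was the lowest of the 10, with 30, 40 and 23 normalised counts in untreated and 33, 16 and 16 in amisulpride libraries. Amisulpride replicates 2 and 3 lay below all untreated libraries and replicate 1 among them. At this depth 1 read was worth 0.834 to 1.79 normalised counts, and a floor of 3 reads came to 2.50 to 5.37, below every Tfeb value. The means were 31 ± 8.54 and 21.7 ± 9.82 (SD, n = 3 each), and the log2 fold change of -0.54 ± 0.42, with a 95% interval of -1.47 to 0.38, had an adjusted p of 0.691. The interval thus holds both no change and a level 2-fold lower.

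The relatives of TFEB and the proteins that report nutrients to them form a list of 16 genes with 13 tested, of which 4 were higher and 9 lower, with a median log2 fold change of -0.20. Tfe3 had 171, 93 and 114 against 126, 86 and 111. Mitf, whose protein pairs with TFEB, had 24, 17 and 21 against 9, 13 and 4, the last under the floor of its library, and its log2 fold change of -1.27 ± 0.53 (adjusted p = 0.404) passed the study thresholds. That call was lost with a pseudocount of 5, where the value was -0.96, with weights per library (-0.97), and when any of the 3 untreated libraries or amisulpride replicate 3 was left out (-0.86 without the latter). Of 18 lysosomal genes counted among TFEB targets, 9 were higher and 9 lower, with a median of -0.04. None of the 18 had an adjusted p under 0.05.

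The members' promoters were searched for the letters that TFEB and NRF2 are known to bind, both strands, from 250 bases before to 50 bases after each RefSeq start (GRCm38.p6). Entries matched 8 of the 10 genes with 10 windows, and Map1lc3a and Becn1 were not matched. The E-box CACGTG occurred in 0 of the 10 windows, against 7.15% of 32851 promoters of the same length, and the longer TCACGTGA, which contains it, in 0 against 0.974%. The antioxidant response core TGACNNNGC occurred in 1 window, that of Map1lc3b, against 12.4% of all promoters. These counts say only which letters these windows hold.

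The step after conjugation is fusion with the lysosome. Of 12 genes for it, 7 were higher and 5 lower, with a median log2 fold change of 0.07 and none at an unadjusted p under 0.05. Epg5, a tether of autophagosomes and lysosomes, had the lowest p of this list, with 35, 36 and 48 against 61, 43 and 118 (0.77 ± 0.38, adjusted p = 0.504). With the replicate number as a block, or without amisulpride replicate 2, its unadjusted p came under 0.05. In every other alternative it stayed above 0.05. Without amisulpride replicate 3, which held the value of 118, the log2 fold change of Epg5 was 0.38.

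Over all 11 lists written around the members, 122 further genes were listed and 117 tested. Of these 68 were higher and 49 lower, with a median of 0.08, and 0 had an adjusted p under 0.05 in limma, the lowest being 0.140. At an unadjusted p under 0.05 there were 7 higher and 2 lower, against the 5.11% and 5.77% of all genes given above, and 2 genes, Nqo1 and Mitf, passed the study thresholds, against the 5.7% of all genes given above. Groups did not overlap in 15 higher and 6 lower genes, against the 7.8% and 8.66% of all genes given above.

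**Figure D4:**
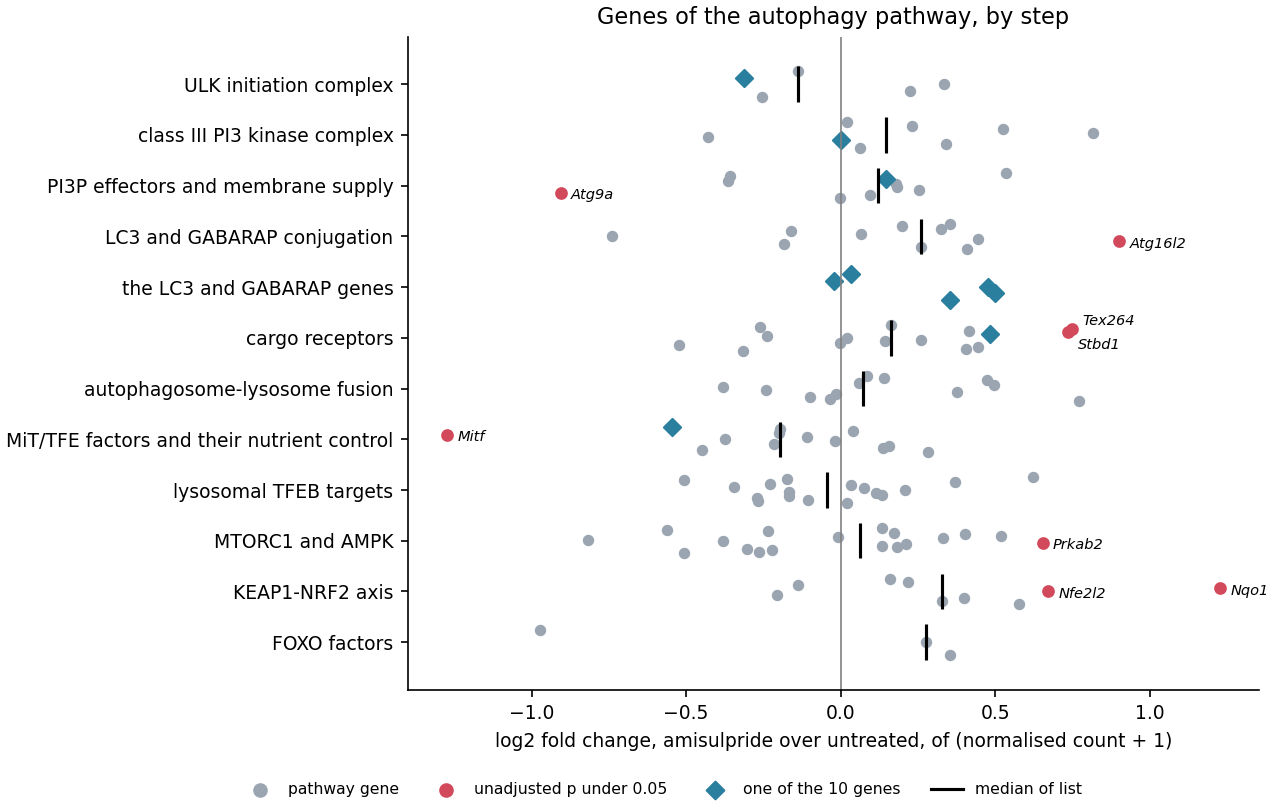
Log2 fold change, amisulpride over untreated, of the tested genes of the autophagy lists, 1 of them not drawn, 1 row per list with its median as a black line; diamonds are the 10 autophagy genes, whose LC3 and GABARAP genes have a row of their own with no line, and red points have an unadjusted limma p under 0.05. Most points lie between -0.5 and 0.5, and the 8 red points are spread over 6 lists, 2 of them each among cargo receptors and the KEAP1-NRF2 axis.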

How the data were processed

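The authors mapped reads to mm10 with TopHat2 and the remainder with Bowtie2, counted reads per gene with GenomicRanges, normalised the counts and tested them with DESeq, all through metaseqr; versions and strand use are not given in the sources used here. The deposited values are a score: read counts that the authors scaled by library and then rounded to integers, called normalised read counts. Of the authors' table, fold changes, p-values, FDR and 12 further columns of values per library were not used.

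Genes with at least 10 in at least 3 libraries (12614) were tested two-sided on log2(value + 1) with limma (version 3.58.1, under R version 4.3.3), with a variance trend (prior degrees of freedom 7.31) and Benjamini-Hochberg adjustment over all genes tested. The script was tested on simulated data. Approximate depths came from the worth of 1 read that best fitted the frequencies of low values in each library. Floors of 3 reads cover counting error only. Same-numbered libraries deviated together (correlations of 0.229, 0.240 and 0.201, others -0.149 to -0.0777), so replicate numbers were used as a block in an alternative. Other alternatives were a pseudocount of 5, no filter, upper-quartile and quantile scaling, weights per library and leaving out each library.

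The members and lists were chosen with earlier results of these data known. Besides the members, the text names list genes with an unadjusted p under 0.05 (at most 4 per list), otherwise the gene with the lowest p, paralogs and partners of members, and the 5 genes most correlated with Sqstm1, except that a few items are not reported here.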

Additional observations from a re-analysis of the deposited data

How the results depend on the processing

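In every alternative tried, 0 of the 10 autophagy genes had an adjusted p under 0.05 and 0 passed the study thresholds. At an unadjusted p under 0.05 the count rose from 0 to 2, Sqstm1 and Gabarapl1, with weights per library and also without amisulpride replicate 3, so leaving out 1 library gave 0 to 2. The median log2 fold change of the 10 genes was 0.09, and 0.0541 to 0.23 with 1 library left out, the upper value being that without amisulpride replicate 3. Of 120 member values under the alternatives, 107 kept their direction and 13 changed sign, all in genes with a fold change near 0. Map1lc3a was 0.0937 with weights and -0.26 to 0.26 with 1 library left out. Map1lc3b was -0.0713 with quantile normalisation, -0.0328 with weights and -0.11 to 0.23 with 1 library left out. Becn1 was -0.0232 with upper-quartile rescaling, -0.0239 with quantile normalisation and -0.16 to 0.10 with 1 library left out. The other pathway genes with an unadjusted p under 0.05 numbered 9, and 11 with weights per library, 13 with the replicate block and 5 to 10 with 1 library left out, 5 being the count without untreated replicate 2 and without untreated replicate 3.

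Over all genes tested, those with an adjusted p under 0.05 numbered 36, and 57 with a pseudocount of 5, 57 with no filter, 195 with weights per library and 263 with the replicate block. Leaving out 1 library gave 0 to 120: 1, 0 and 0 without untreated replicates 1, 2 and 3, and 17, 6 and 120 without amisulpride replicates 1, 2 and 3. The cause was not tested. The block changed no call of the 10 genes. With 3 libraries in each group, the SE of the members ran from 0.23 to 0.42 on the log2 scale, the highest being that of Tfeb, the gene with the fewest reads.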

Other observations

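Several further sets of genes linked to autophagy were listed beside the members. The KEAP1-NRF2 axis, the oxidative stress response that p62 feeds by holding KEAP1, had 9 genes, of which 7 were higher and 2 lower, with a median log2 fold change of 0.33. Nqo1, which encodes the quinone reductase NQO1, had 31, 40 and 38 normalised counts in untreated and 65, 92 and 106 in amisulpride libraries, without overlap, and a log2 fold change of 1.23 ± 0.31 (adjusted p = 0.140 in limma). Nfe2l2, which encodes NRF2 itself, had 218, 195 and 168 against 267, 258 and 421, also without overlap (0.67 ± 0.27, adjusted p = 0.387). Its unadjusted limma p was under 0.05, but not without untreated replicate 2, untreated replicate 3 or amisulpride replicate 3. Without amisulpride replicate 3, which held the 421, its log2 fold change was 0.44. Keap1 had 266, 395 and 385 against 412, 357 and 179 and overlapped. None of the 9 had an adjusted p under 0.05.

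MTORC1 and AMPK, the kinases that restrain and promote ULK1, were covered by 19 genes with 18 tested, 9 of them higher and 9 lower, with a median of 0.06. Prkab2, a regulatory subunit of AMPK, had 115, 100 and 112 against 196, 150 and 172 (0.65 ± 0.25, adjusted p = 0.350), while the subunit gene Prkag1 had 553, 446 and 521 against 397, 428 and 342, lower without overlap. Of the 4 FOXO factor genes, 3 were tested, 2 higher and 1 lower: Foxo4 had 28, 33 and 43 against 9, 23 and 23 (adjusted p = 0.460). The unadjusted limma p of Foxo4, just above 0.05, came under it in some alternatives. These were the replicate number as a block, a pseudocount of 5, upper-quartile rescaling, weights per library, and leaving out amisulpride replicate 2 or 3. It stayed above 0.05 with no filter, with quantile normalisation, and without any single untreated library. It also stayed above without amisulpride replicate 1, where the log2 fold change was -0.55. None of these genes passed adjustment.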
